A study of Mus musculus with 2 samples.

Results

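The TAM receptors Tyro3, Axl and Mertk and their secreted ligands Gas6 and Pros1 were read in cells that had entered scaffolds in a mouse skull defect. The 5 genes were found by their symbols among 32285 genes in the count matrices, and all 5 were present on a single identifier each. The animals were female Balb/c mice, 6 weeks old, with a round cranial defect of 3.5 mm that held an acellular scaffold named Gel100 or Gel50_CS50. The sources used here do not explain these names. Cells of 5 mice per scaffold were pooled at week 1, viable cells were sorted, and 1 droplet library was made per scaffold, without an untreated group. There is no replicate, so every difference between scaffolds below is a difference between 2 libraries, with no test, and the 95% intervals cover counting error only.

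TAM receptors are receptor tyrosine kinases named after their members. Gas6 and Pros1 (protein S) carry vitamin K-dependent Gla domains that bind phosphatidylserine, the lipid exposed on dying cells, and so link those cells to a receptor on the phagocyte. Gas6 can engage all members of the receptor family, whereas Pros1 acts on Tyro3 and Mertk. In macrophages Mertk is known for the uptake of apoptotic cells, and Axl for its induction by inflammatory signals such as interferon; both dampen cytokine responses. Pros1 is also a plasma anticoagulant cofactor.

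After filtering there were 7601 Gel100 cells, at a median depth of 12707 unique molecular identifiers (UMIs), and 7206 Gel50_CS50 cells, at a median of 16509.5. Cells were placed in classes by clusters built without the 5 genes and named from marker genes, so each class name means a cell like that type. Macrophages and monocytes were 3649 and 3590 cells in Gel100 and Gel50_CS50, and their 12 markers summed to 19509 and 22931 CPM there (UMIs of a gene per 1e6 UMIs of the class), against 494.5 and 631 CPM in stromal cells. Stromal cells were 217 and 654 cells, and their 8 markers summed to 43345 and 45424 CPM. Osteoblast and osteocyte markers summed to only 5.59 and 14.9 CPM in stromal cells. The libraries shared 24 barcodes, and 22 and 23 kept cells carried such a barcode. Unnamed clusters held 15.2% of Gel100 and 6.34% of Gel50_CS50 cells.

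In the mm10 annotation (GENCODE vM21) all 5 are protein-coding genes. Gas6 lies at chr8:13465374-13494490 on the minus strand with 15 exons, and Pros1 at chr16:62854307-62929346 on the plus strand with 15 exons. Axl lies at chr7:25757273-25788705 on the minus strand with 20 exons. Mertk lies at chr2:128698956-128802894 with 19 exons and Tyro3 at chr2:119797733-119818104 with 20 exons, both on the plus strand. Tmem255b overlaps an end of Gas6 and the antisense gene Gm14011 lies within Mertk, both on the opposite strand. The sources used here do not say whether counting used strand. These neighbours had few counts in macrophages: 1 UMI of Tmem255b in each library, and 21 and 11 UMIs of Gm14011.

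The 250 bases upstream of the start are shown for Axl and Gas6, the members whose macrophage levels lay furthest apart between the scaffolds and in opposite directions. They come from the RefSeq promoter table (GRCm38.p6), in which all 5 symbols matched. The Axl window is chr7:25788734-25788983 and the Gas6 window chr8:13494536-13494785, both on the minus strand and printed 5′ to 3′ in gene orientation. Capitals mark GGGCGG on either strand, the core of a GC box.
Axl: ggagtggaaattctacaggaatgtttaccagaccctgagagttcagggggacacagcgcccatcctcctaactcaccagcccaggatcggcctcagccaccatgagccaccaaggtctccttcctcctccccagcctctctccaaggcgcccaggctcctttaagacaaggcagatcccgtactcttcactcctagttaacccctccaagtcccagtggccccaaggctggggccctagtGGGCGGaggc
Gas6: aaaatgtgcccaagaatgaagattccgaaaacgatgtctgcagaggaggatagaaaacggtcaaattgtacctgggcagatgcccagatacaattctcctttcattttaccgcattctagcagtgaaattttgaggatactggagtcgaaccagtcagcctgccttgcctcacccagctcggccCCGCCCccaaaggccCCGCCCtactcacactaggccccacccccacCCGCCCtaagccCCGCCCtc
The Axl window held 1 match and the Gas6 window 4, while Pros1 had 5 and Mertk and Tyro3 3 each. Of 32851 mouse promoters with a window of the same length, 32.7% held at least 1 match. The core of an interferon-stimulated response element (GAAA, any 2 bases, GAAA) was searched on both strands and matched none of the 5 windows, against 2.98% of all promoters. A match is a description of letters, and its absence says only that these letters are not in this window.

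**Figure D1:**
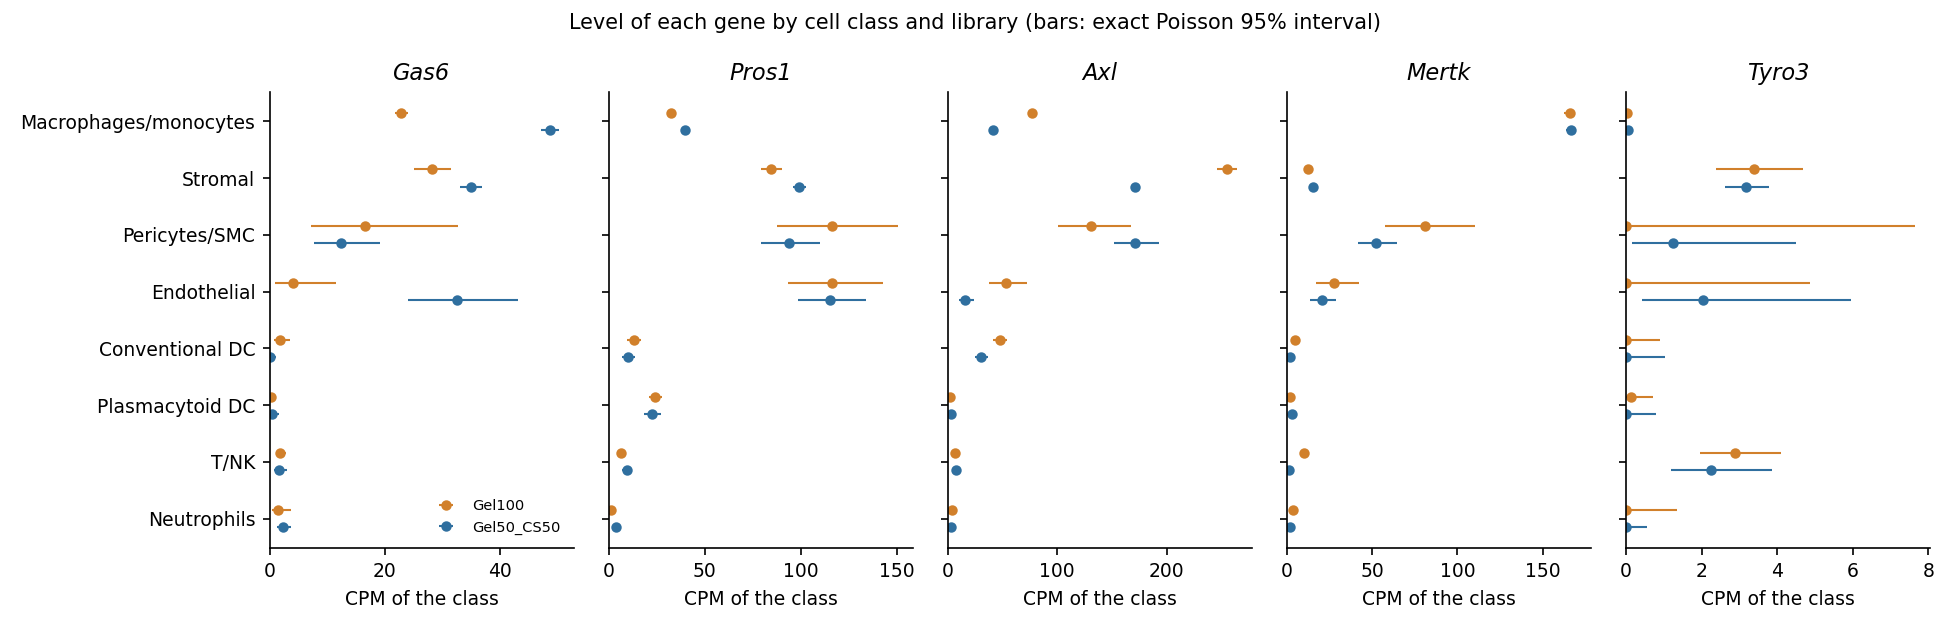
Level of Gas6, Pros1, Axl, Mertk and Tyro3 (x axis, CPM of the class, a scale of its own for each gene) in 8 cell classes (y axis) of the Gel100 (orange) and Gel50_CS50 (blue) libraries; points are summed counts and bars exact Poisson 95% intervals. Mertk stands at 166 and 167 CPM in macrophages and Axl is highest in stromal cells of Gel100, at 255 CPM.

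The receptors were divided between cell classes. Mertk was a macrophage gene: its level there was 166 CPM in Gel100 and 167 CPM in Gel50_CS50, and macrophages held 93.5% and 91.8% of each library's Mertk UMIs. Pericytes and smooth muscle cells came next, at 80.9 and 52.2 CPM over 28 and 52 cells. Endothelial cells had 27.7 and 20.3 CPM and stromal cells 12.1 and 15.1 CPM. In both libraries the intervals separated macrophages from pericytes and pericytes from endothelial cells, but endothelial and stromal cells were separated only in Gel100. The Gel100 endothelial value rested on 21 UMIs in 10 cells. With each cell weighted equally the order of these 2 classes turned. Mertk was then 17.4 and 9.34 CPM in endothelial cells and 31.8 and 15.9 CPM in stromal cells. Neutrophils, at 3.65 and 1.63 CPM, and plasmacytoid dendritic cells, at 1.80 and 2.96 CPM, marked the low end, where the intervals of neighbouring classes overlapped.

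Axl was the receptor of stromal cells, with 255 CPM in Gel100 and 171 CPM in Gel50_CS50. Pericytes had 131 and 172 CPM, below stromal cells in Gel100 and not separable from them in Gel50_CS50. Macrophages followed at 76.7 and 41.5 CPM, conventional dendritic cells at 47.3 and 29.9 CPM and endothelial cells at 52.8 and 15.6 CPM. Within the dendritic cells the Ccr7 and Ccl22 cluster had 82.5 and 50.2 CPM, and the Xcr1 and Clec9a cluster 14.1 and 5.00 CPM. T and NK cells, neutrophils and plasmacytoid dendritic cells stayed between 1.68 and 6.94 CPM.

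Tyro3 was close to undetected. Stromal cells had 3.39 CPM from 37 UMIs in Gel100 and 3.17 CPM from 119 UMIs in Gel50_CS50, and T and NK cells had 2.89 and 2.26 CPM, with overlapping intervals. Macrophages had 1 UMI and 3 UMIs in all. In neutrophils and conventional dendritic cells no UMI was found.

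Both ligands had several sources. Pros1 was highest in endothelial cells (116 and 115 CPM), pericytes (116 and 93.9 CPM) and stromal cells (84.4 and 99.3 CPM), 3 classes whose neighbours in this order were not separable by their intervals. Macrophages had 32.3 and 39.9 CPM and plasmacytoid dendritic cells 24.1 and 22.2 CPM, each separated from the class below in both libraries. Gas6 was found mainly in macrophages, at 22.9 and 48.7 CPM, and in stromal cells, at 28.2 and 35.0 CPM. By summed counts these classes were not separated in Gel100, and macrophages were above stromal cells in Gel50_CS50. This order depended on the measure. With each cell weighted equally, Gas6 was 22.8 and 51.5 CPM in macrophages and 41.1 and 47.8 CPM in stromal cells. In cells thinned to an equal depth it was 21.1 and 48.4 CPM in macrophages and 39.9 and 50.1 CPM in stromal cells. These levels have no intervals. By summed counts neutrophils, T and NK cells and dendritic cells were at or below 2.23 CPM of Gas6.

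The classes that held the UMIs of Axl and Pros1 differed between the libraries. Stromal cells made up 2.85% of Gel100 and 9.08% of Gel50_CS50 cells, and 10.4% and 26.1% of all UMIs. They held 32.7% of Axl UMIs in Gel100 and 60.3% in Gel50_CS50, while the macrophage share was 55.0% and 28.6%. For Pros1 the stromal share was 25.3% and 48.9%, and the macrophage share 54.1% and 38.4%. Gas6 UMIs stayed mostly with macrophages, at 77.4% and 70.8%. Over all kept cells Axl was 80.8 and 74.1 CPM, a log2 ratio of -0.12, although it was lower in Gel50_CS50 within macrophages and within stromal cells.

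**Figure D2:**
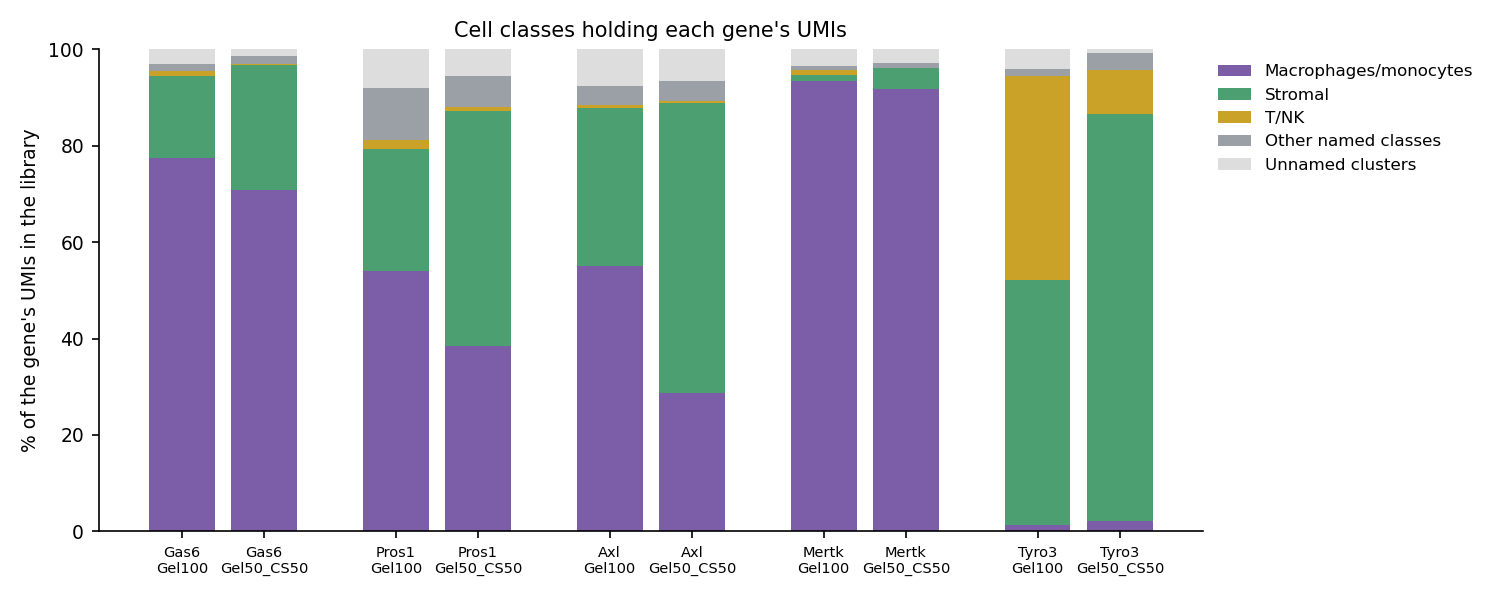
Share of each gene's UMIs (y axis, % of the library's UMIs of that gene, stacked to 100%) held by macrophages and monocytes, stromal cells, T and NK cells, the other named classes and unnamed clusters, for each gene and library (x axis). The stromal share of Axl is 32.7% in Gel100 and 60.3% in Gel50_CS50, and macrophages hold 93.5% and 91.8% of Mertk; Tyro3 rests on 73 and 141 UMIs.

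Between the scaffolds, macrophages of Gel50_CS50 had more Gas6 and less Axl, at the same Mertk. Gas6 was 22.9 CPM (21.7 to 24.1) in Gel100 and 48.7 CPM (47.1 to 50.3) in Gel50_CS50, a log2 ratio of 1.09 (1.00 to 1.18). Axl was 76.7 CPM (74.5 to 78.9) and 41.5 CPM (40.0 to 43.0), a log2 ratio of -0.89 (-0.95 to -0.82). Mertk differed by 0.01 (-0.03 to 0.05) and Pros1 by 0.30 (0.22 to 0.39) on the log2 scale. A difference beyond 1.5-fold is used below to set genes apart. Of 6103 genes measured in macrophages (a mean of at least 20 CPM), 2.72% were beyond 1.5-fold higher and 4.74% beyond 1.5-fold lower in Gel50_CS50. Of the 4 members measured, Gas6 was beyond it upward and Axl downward.

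The share of macrophages with a UMI moved the same way. Cells were thinned to 3000 UMIs and shallower cells left out, which dropped 256 Gel100 and 47 Gel50_CS50 macrophages. Gas6 was then found in 4.57% of Gel100 and 9.65% of Gel50_CS50 macrophages (12.6% and 25.4% of all macrophages unthinned). Axl was found in 18.4% and 9.77% (47.4% and 33.8% unthinned), and Mertk in 30.5% and 32.0% (59.4% and 68.9%). Median depth was 16310 and 18871 UMIs. Neutrophils, which served as a class expected to lack these genes, had thinned shares of 0.571% and 0.464% for Gas6 and 1.33% and 0.696% for Axl, at median depths of 4069.5 and 4346 UMIs.

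Macrophage states made up the class differently in each library. The interferon-activated cluster (cluster 0) was 34.7% of Gel100 macrophages and 4.68% of Gel50_CS50 macrophages. The foreign-body-type cluster (cluster 1, led by Gpnmb, Spp1 and Fabp5) was 10.9% and 25.4%, and the Arg1 and Cxcl3 cluster (cluster 12) 0.713% and 16.3%. A cluster held almost wholly by 1 library may be that library rather than a cell state, so each cluster was also read on its own.

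Gas6 was concentrated in the foreign-body-type cluster, at 96.8 CPM in Gel100 and 126 CPM in Gel50_CS50. A Cd5l, Ltc4s and Cd36 cluster (cluster 3) had 35.2 and 57.6 CPM, the MHC class II high cluster with Retnla (cluster 11) 29.9 and 43.7 CPM, and the resident-type cluster (cluster 8) 16.6 and 27.2 CPM. The interferon-activated cluster had 2.02 and 9.81 CPM, the monocyte cluster (cluster 10) 0.302 and 3.17 CPM from 1 and 17 UMIs, and the MHC class II high cluster with Saa3 (cluster 5) 9 UMIs in each library. The Arg1 and Cxcl3 cluster (cluster 12) had 4.28 CPM from 2 UMIs and 3.65 CPM from 51 UMIs. Thus Gas6 was low where interferon, monocyte, Saa3 or Arg1 and Cxcl3 genes led. It was higher in Gel50_CS50 in 5 of 6 clusters with at least 20 UMIs of it, all but cluster 12. The log2 ratio was 0.38 in cluster 1, 0.55 in cluster 11 and 0.71 in clusters 3 and 8, all below the class ratio of 1.09. It was above it in cluster 0, at 2.28 (1.55 to 2.998) from 41 and 30 UMIs, and in cluster 10, at 3.39 (0.72 to 8.78). It was below 0 in cluster 12, at -0.23 (-2.16 to 2.85), and in cluster 5, at -0.73 (-2.24 to 0.78), with intervals that held 0. Weighted to the same cluster shares in both libraries, the class ratio was 0.52 and no longer beyond 1.5-fold.

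Axl had another pattern. Its highest macrophage levels were in the MHC class II high clusters, 135 and 92.0 CPM in cluster 11 and 117 and 66.1 CPM in cluster 5. The monocyte cluster had 83.8 and 44.2 CPM, the foreign-body-type cluster 71.7 and 35.2 CPM and the resident-type cluster 71.1 and 44.8 CPM. The Arg1 and Cxcl3 cluster was lowest, with 27.8 CPM from 13 UMIs in Gel100 and 7.23 CPM from 101 UMIs in Gel50_CS50. Axl was lower in Gel50_CS50 in 7 of 8 clusters, with the interval below 0 in all 7 and beyond 1.5-fold in 6. The exception was the interferon-activated cluster, at 71.7 and 75.2 CPM (log2 ratio 0.07, -0.14 to 0.27). With equal cluster shares the class ratio was -0.61, and without cluster 0 it was -0.98.

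Mertk kept its level across the scaffolds in most states. It was highest in the foreign-body-type cluster, 283 and 260 CPM, and lowest in the monocyte cluster, 48.4 and 78.1 CPM, and in cluster 5, 74.9 and 79.7 CPM. The monocyte cluster was the only macrophage cluster in which it differed beyond 1.5-fold (log2 ratio 0.69, 0.43 to 0.96). Pros1 was highest in clusters 3 (65.3 and 80.2 CPM) and 11 (65.6 and 59.4 CPM) and lowest in the interferon-activated cluster (9.25 and 8.83 CPM). Cluster 13, led by Mmp12, Retnla and Ccl24 and left unnamed, had 128 and 96.0 CPM of Axl with 23.4 and 33.2 CPM of Mertk.

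**Figure D3:**
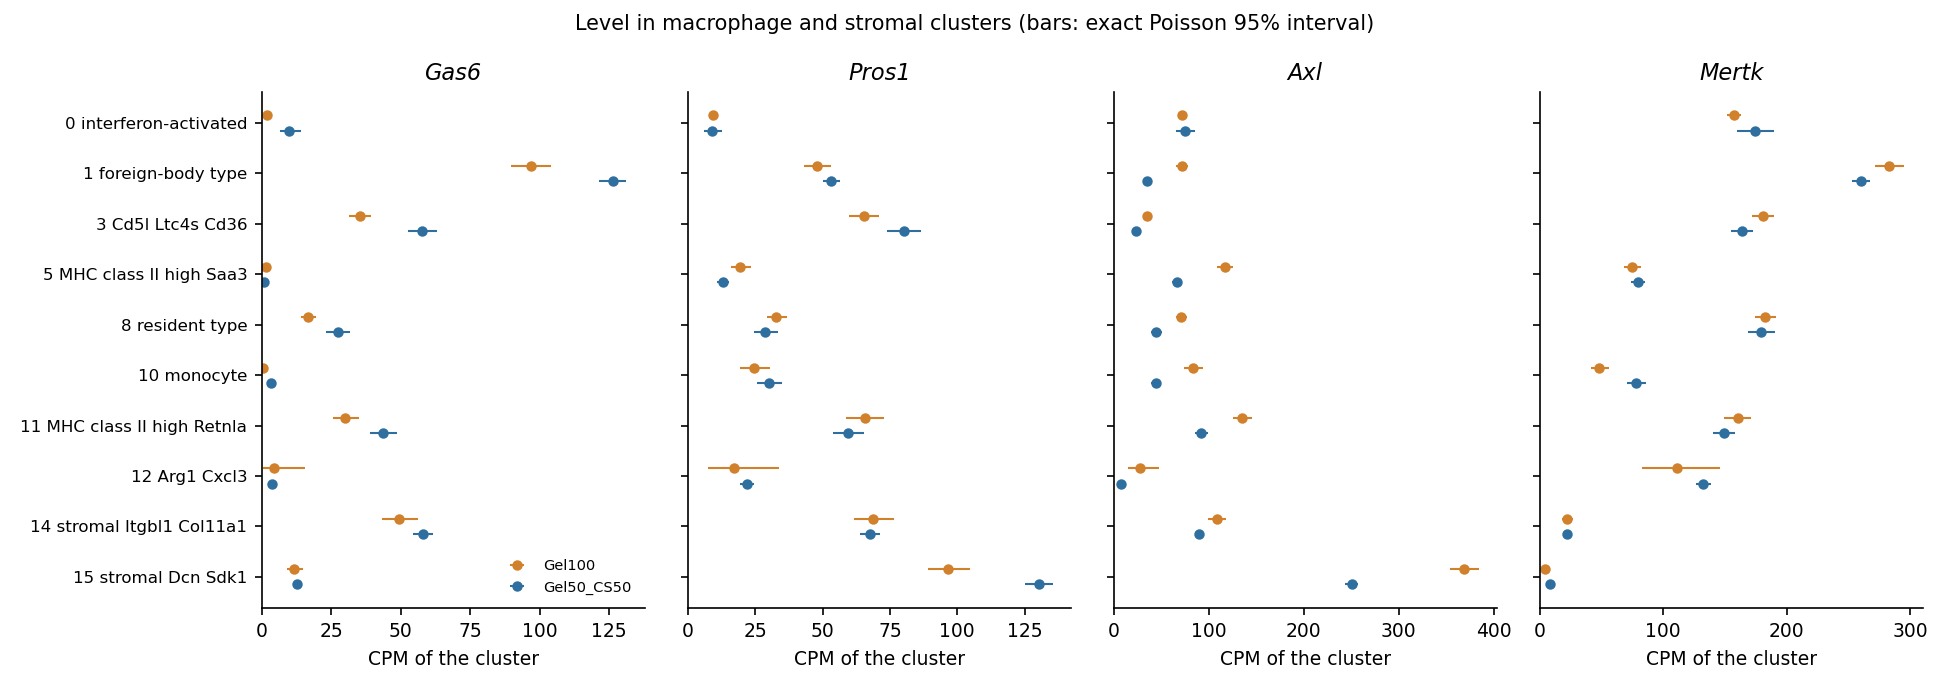
Level of Gas6, Pros1, Axl and Mertk (x axes, CPM of the cluster) in 8 macrophage and 2 stromal clusters (y axis) of the Gel100 (orange) and Gel50_CS50 (blue) libraries, with exact Poisson 95% intervals. Gas6 peaks in the foreign-body-type cluster at 96.8 and 126 CPM and Axl in the Dcn and Sdk1 stromal cluster at 369 and 250.4 CPM.

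Receptors and ligands were also read in the same cells. In thinned macrophages, Gas6 was found in 7.83% of cells with a Mertk UMI and 3.14% of cells without in Gel100, and in 13.9% and 7.67% in Gel50_CS50. Within clusters the intervals of these shares were apart only in cluster 1 of Gel100 (29.6% and 16.3%). In cluster 1 of Gel50_CS50 they were 24.7% and 20.7%, in cluster 3 of Gel50_CS50 11.9% and 13.7%, and in cluster 8 3.91% and 3.24% in Gel100 and 10.1% and 10.2% in Gel50_CS50, all overlapping. In cluster 3 of Gel100 they were 9.50% and 5.87%, also overlapping. In cluster 11 they were 11.4% and 3.83% in Gel100 and 16.7% and 9.91% in Gel50_CS50, overlapping as well. Axl did not follow Mertk: it was found in 17.6% of cells with Mertk and 18.8% of those without in Gel100, and in 8.75% and 10.2% in Gel50_CS50, with overlapping intervals. Across 15 macrophage cluster and library combinations with at least 50 cells, the Pearson correlation of log2(CPM + 10) was 0.81 between Gas6 and Mertk, 0.77 between Gas6 and Pros1, and -0.12 between Gas6 and Axl. These points share 2 libraries and their depth, and the values are descriptions.

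The genes most like Gas6 over these points were Pdgfc (r = 0.97), a growth factor, Selenop (0.97), a selenium carrier, Scp2 (0.97), Rnf150 (0.96) and Idh2 (0.95), among 6103 ranked. For Axl they included Plaat3 (0.91), Phlpp1 (0.88), Prcp (0.87) and Calhm6 (0.87). For Mertk they were Mrps26, Slc27a1, March8, Tex264 and Pianp (all 0.96), and for Pros1 Pdia4 (0.97), Laptm5 (0.96), Snx9 (0.94), Wdr3 (0.94) and Cltb (0.93). The mean of the resident-type genes had r = 0.93 with Gas6 and -0.16 with Axl. The mean of the interferon-stimulated genes had -0.73 with Gas6 and 0.48 with Axl. The resident-type genes were not particular to the resident-type cluster. They summed to 8409 and 7919 CPM there, with Gas6 at 16.6 and 27.2 CPM. In the foreign-body-type cluster they summed to 7491 and 8756 CPM, with Gas6 at 96.8 and 126 CPM.

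Other parts of the clearance pathway were read against all 6103 macrophage genes, of which 166 were higher and 289 lower beyond 1.5-fold, with a median log2 ratio of -0.01. Other bridging molecules and phosphatidylserine receptors, such as Cd36 and Stab1, had 13 measured genes, none beyond 1.5-fold (median -0.09). The same held for 7 genes of lipid exposure and clearance brakes (median 0.06), 15 of engulfment (median 0.01), 4 of receptor shedding (median 0.19) and 1 of the vitamin K cycle. Of 11 genes of TAM feedback on inflammation, 2 were lower (median 0.00), among them Socs1, an inhibitor of cytokine signalling, at 33.9 and 13.3 CPM. Of 11 genes of LXR and cholesterol efflux, which respond to engulfed lipid, 2 were lower: the nuclear receptors Pparg, at 87.7 and 45.4 CPM, and Nr1h3, at 104 and 59.5 CPM. These are whole-class values, and cluster shares differed between the libraries. With the same cluster weights, 42 genes were higher and 79 lower beyond 1.5-fold. The part of cluster shares in the named genes was not tested.

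Of the interferon-stimulated genes measured in macrophages, 13 of 14 were lower beyond 1.5-fold in Gel50_CS50 (median -1.16), led by Cmpk2 (168 and 56.3 CPM), Ifit2 (554 and 191 CPM) and Gbp2 (203 and 72.2 CPM). In cluster 1 their summed level was 2171 and 1955 CPM, with Axl at 71.7 and 35.2 CPM. In cluster 0 it was 10868 and 11696 CPM, with Axl at 71.7 and 75.2 CPM. Cluster 0 was named from some of these genes. In clusters 3, 5, 8, 10 and 11 both the sum and Axl were lower in Gel50_CS50. The sum was 8473 and 4574 CPM in cluster 5, with Axl at 117 and 66.1 CPM. It was 5030 and 3672 CPM in cluster 8, with Axl at 71.1 and 44.8 CPM. Whether Axl is linked to these genes was not tested. Of 10 resident-type genes, 3 were higher: F13a1 (176 and 534 CPM), Pf4 (323 and 829 CPM) and the mannose receptor Mrc1 (261 and 555 CPM), with a list median of 0.00. Of 8 pro-resolving genes, only Il1rn, the interleukin-1 receptor antagonist, was beyond 1.5-fold, at 394.5 and 232 CPM. The list counts here are also whole-class values.

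Stromal cells divided Gas6 and Axl between their 2 clusters. The cluster led by Itgbl1 and Col11a1 (cluster 14) had 49.5 and 58.0 CPM of Gas6 with 109 and 90.1 CPM of Axl. The cluster led by Dcn and Sdk1 (cluster 15) had 11.7 and 12.6 CPM of Gas6 with 369 and 250.4 CPM of Axl. These values show the division in each library. Clusters were of similar size, 103 and 114 cells in Gel100 and 339 and 315 in Gel50_CS50. In thinned stromal cells of Gel50_CS50, Gas6 was found in 5.46% of cells with Axl and 12.3% of those without, and in Gel100 in 3.45% and 10.7%, with overlapping intervals there. Within clusters these shares were 10.5% and 17.2% in cluster 14 and 3.09% and 3.95% in cluster 15 of Gel50_CS50, again overlapping.

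Axl was lower in stromal cells of Gel50_CS50 as well: 255 CPM (246 to 265) and 171 CPM (167 to 176), a log2 ratio of -0.57 (-0.64 to -0.51), just short of 1.5-fold. Of 6982 genes measured in stromal cells, 1.45% were beyond 1.5-fold higher and 2.41% lower, and no member was beyond it. The ratio was -0.27 in cluster 14 and -0.56 in cluster 15. Gas6 differed by 0.31 (0.13 to 0.50), Pros1 by 0.23 (0.13 to 0.34) and Mertk by 0.32 (0.04 to 0.60) on the log2 scale. The Mertk value turned to -1.001 with each cell weighted equally and to -0.70 in thinned cells. Pros1 was higher only in cluster 15 (96.6 and 130.4 CPM), and stood at 68.8 and 67.4 CPM in cluster 14.

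In stromal cells 8 of 13 interferon-stimulated genes were lower (median -0.70, against -0.02 over all genes), led by Cxcl10 (233 and 83.5 CPM), Rsad2 (85.9 and 35.7 CPM) and Oasl1 (50.1 and 24.1 CPM). Among bridging and receptor genes, Thbs1, which encodes thrombospondin 1, was higher (88.5 and 146 CPM) and the integrin gene Itgb3 lower (69.6 and 38.2 CPM). Timp3, an inhibitor of the proteases that shed receptors, was lower (279 and 143 CPM), as was Twist2 (78.5 and 39.7 CPM). None of the 7 exposure, 14 engulfment, 3 vitamin K, 8 LXR, 3 resident-type or 5 pro-resolving genes was beyond 1.5-fold.

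**Figure D4:**
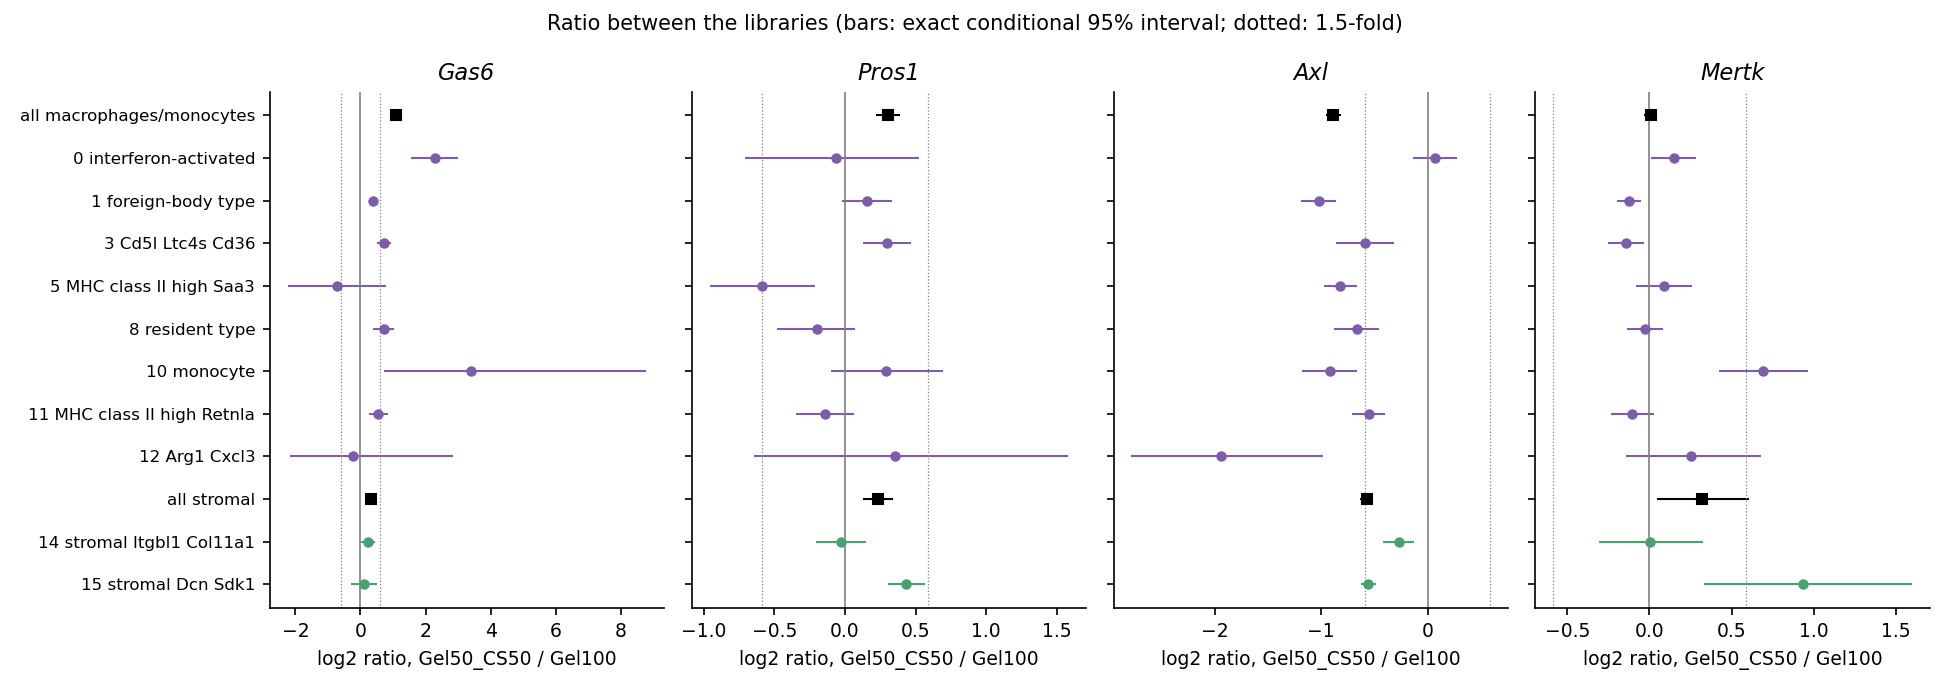
Log2 ratio of Gel50_CS50 over Gel100 (x axes, a scale of its own for each gene) for Gas6, Pros1, Axl and Mertk in all macrophages, all stromal cells (squares) and each of their clusters (circles), with exact conditional 95% intervals; dotted lines mark 1.5-fold. Axl lies below 0 in every row except cluster 0. The Gas6 class ratio of 1.09 lies above those of clusters 1, 3, 8 and 11 (0.38 to 0.71) and below those of clusters 0 and 10 (2.28 and 3.39). Gas6 lies below 0 in clusters 12 and 5 (-0.23 and -0.73), with intervals that hold 0.

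The rarer classes gave further contrasts from few UMIs. Endothelial Gas6 was 3.96 CPM from 3 UMIs in Gel100 and 32.5 CPM from 48 UMIs in Gel50_CS50, a log2 ratio of 3.04 (1.40 to 5.37), while Axl was 52.8 and 15.6 CPM (-1.76, -2.57 to -0.99). All 12 macrophage markers were detected in endothelial cells and summed to 2177 and 843 CPM, and the 8 stromal markers to 5134 and 4183 CPM. Their part in the Axl difference was not tested. The overlapping gene Tmem255b had 9 and 22 UMIs in these cells, and its part in the Gas6 count was not tested. Endothelial cells were shallow, with median depths of 2094 and 5325.5 UMIs over 113 and 110 cells. In conventional dendritic cells Axl differed by -0.66 (-1.02 to -0.31). In pericytes it was higher in Gel50_CS50 by 0.39 with an interval that reached 0 (-0.01 to 0.81), and Mertk differed by -0.63 (-1.20 to -0.04). In pericytes stromal markers summed to 5298 and 13743 CPM, and macrophage markers to 1844 and 642 CPM. Their part in these differences was not tested.

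In T and NK cells Mertk was 10.1 CPM from 108 UMIs in Gel100 and 1.22 CPM from 7 UMIs in Gel50_CS50. Of the Gel100 UMIs, 79 lay in the cluster led by Tox, Ikzf2 and Ctla4 (cluster 21), in 11 of 85 cells, with 38 in a single cell. Macrophage markers summed to 15280 CPM in those 11 cells and to 5616 CPM over the cluster, against 1125 CPM in the same cluster of Gel50_CS50. Axl in this cluster was alike in the libraries, 35.1 and 34.6 CPM, in 18 cells each. Macrophage markers summed to 968 CPM in its Axl-positive cells of Gel50_CS50 and 11463 CPM in those of Gel100.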

How the data were processed

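Droplet 3' single-cell RNA was measured in 1 library per scaffold. The deposited matrices hold whole-number UMI counts per gene and barcode, with no scaling. Per the file headers the software was Cell Ranger 6.0.2, and the build was mm10 per the submitters' processing notes. Barcodes with at least 200 genes, 500 UMIs and under 20% mitochondrial counts were kept, and Scrublet doublets (scanpy 1.11.5, 2.30% and 2.60%) removed. Both libraries were clustered together without integration and without the 5 genes: 3000 variable genes, 30 components, 15 neighbours, leidenalg 0.10.2 at resolution 1.0.

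A cluster took the class whose markers had the highest mean log2(CPM + 10) over the 25th percentile of clusters, if that was at least 2 and led by 1.5, with 3 markers in 10% of cells and a median of 1000 UMIs; macrophage states needed 0.5 and a lead of 0.5. These limits were set after the data were seen. The members and gene lists were chosen with earlier results of these data known, and C1q genes and Timd4 stand on more than 1 list. Rsad2, Ifit2, Cmpk2, Ifit1, Isg15 and Cxcl10 are on the interferon-stimulated list and among the markers that named the interferon-activated cluster. Mrc1 and Pf4 are on the resident-type list and among the markers that named the resident-type cluster. List levels in those clusters are thus partly set by how they were named. Named list genes were up to 3 per direction with the interval wholly beyond 1.5-fold; like genes were the 5 highest correlations. Some genes that these rules name are not reported here.

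Counts were summed per class and library as CPM with exact Poisson intervals, shares have exact Clopper-Pearson intervals, and ratios exact conditional binomial ones, all covering counting error only. The calculations were tested on data simulated with counting error only, without spread between cells or libraries. That checks the arithmetic and not whether the intervals suit these counts. No test between groups was run.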

Additional observations from a re-analysis of the deposited data

Results flagged for a closer look

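Mertk differed in direction between cell classes under the same contrast of scaffolds: the log2 ratio of Gel50_CS50 over Gel100 was 0.32 in stromal cells, -3.05 in T and NK cells and -0.63 in pericytes and smooth muscle cells. The stromal value turned to -1.001 with each cell weighted equally and to -0.70 in thinned cells, and it is the only one of the 3 above 0. Of the 108 Gel100 UMIs in T and NK cells, 79 lay in 11 cells of cluster 21. Macrophage markers summed to 15280 CPM in those 11 cells. In pericytes macrophage markers summed to 1844 and 642 CPM. The part of such transcripts in these ratios was not tested. Within macrophages the Mertk ratio was 0.15 in cluster 0 (interferon-activated) and 0.69 in cluster 10 (monocyte), but -0.12 in cluster 1 (foreign-body type) and -0.14 in cluster 3 (Cd5l, Ltc4s and Cd36). Pros1 was 0.30 in cluster 3 and -0.59 in cluster 5 (MHC class II high with Saa3). Each of these has an interval on 1 side of 0. Those intervals cover counting error only and leave out the spread between cells and between mice. The differences between classes or clusters were not tested.

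Ratios resting on fewer than 20 UMIs over both libraries were not listed here. That minimum was set after the values were seen, and it left out Gas6 in conventional dendritic cells, with 7 UMIs in Gel100 and 0 in Gel50_CS50. That class was the only one with a Gas6 interval below 0, so without the minimum the higher Gas6 of endothelial cells (3.04), macrophages (1.09) and stromal cells (0.31) would also be listed as opposed in direction.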

How the results depend on the processing

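No paired analysis was possible because each scaffold has 1 library, and no replicate could be left out for the same reason. In macrophages Axl was lower in Gel50_CS50 beyond 1.5-fold in all 17 alternatives, from -0.98 to -0.61: -0.80 at resolution 0.5, with 50 components and with unnamed clusters given to their closest class, -0.82 with each library clustered alone, -0.69 with a per-cell marker gate, -0.81 under 10% mitochondrial counts and -0.61 with the same cluster weights. Gas6 was beyond 1.5-fold in 16 of 17: 1.20 in thinned cells and 0.52 with the same cluster weights. Mertk was 0.088 with cells weighted equally and 0.058 in thinned cells, never beyond 1.5-fold. Settings chosen after seeing the data gave, for Gas6, Axl and Mertk, 0.60, -0.98 and -0.033 without cluster 0, 0.64, -0.82 and -0.18 without cluster 1, and 1.37, -0.64 and 0.072 without cluster 12. Pros1 in macrophages ranged from -0.09 to 0.44 and changed sign in 1 of 17. In stromal cells Axl was -0.34 with cells weighted equally, -0.46 in thinned cells and -0.49 with the same cluster weights (added later), and passed 1.5-fold in 1 of 13 alternatives. Stromal Mertk was -1.001 with cells weighted equally and -0.70 in thinned cells, and between 0.22 and 0.38 in the other 11 alternatives.

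Genes beyond 1.5-fold higher and lower in macrophages (166 and 289) numbered 50 and 140 where the minimum was 100 CPM, 4652 and 3512 where there was none, 42 and 79 with the same cluster weights, and 110 and 181 without cluster 0. In stromal cells (101 and 168) they numbered 304 and 521 in thinned cells, 30 and 63 at 100 CPM, and 4952 and 3239 with no minimum. The causes were not tested.

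Counts were few for all members in endothelial cells, which were shallow, and in pericytes, which were 28 and 52 cells. In macrophages the upper bounds of Tyro3 were 0.0912 and 0.119 CPM.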
